A study of Mus musculus with 11 samples.

Results

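The genes described here are 10 cytokine receptor genes of early blood progenitors, taken by symbol from a list and read in the larger of the 2 deposited tables, where they are 10 of 28944 transcript clusters tested. The rule took the members by gene symbol and used none of their values, but the list was chosen with earlier results of these data known. Each had 1 row in that table, so all 10 were measured. They are Csf1r, Csf2ra, Csf2rb, Csf3r, Il3ra, Il6st, Ifngr1, Ifnar1, Tgfbr1 and Tgfbr2.

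The samples were LSK cells of C57BL/6 mice, sorted by flow cytometry from low-density marrow: cells without lineage antigens that carry Sca-1 and Kit, among which stem cells and multipotent progenitors are found. The knockout group is labelled KLF5 KO and the control group KLF5 WT, and the sample descriptions of both groups carry MxlCre. Mx1-Cre is driven by an interferon-responsive promoter that is active in blood cells and in other tissues; whether and when it was induced, the animals' age, and whether an array held 1 animal or a pool are not given in the sources used here. Total RNA was read on Affymetrix Mouse Gene 1.0 ST arrays, 4 knockout arrays (replicates 2 to 5) and 5 wild-type arrays (replicates 2 to 6) in the 9-array table, and replicate 1 of each genotype in a separately normalized table.

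Cytokine receptors let progenitors read survival, growth and lineage signals from the marrow. Members of the haematopoietin receptor family (Csf2ra, Csf2rb, Csf3r, Il3ra and Il6st) and the interferon receptors (Ifngr1 and Ifnar1) have no enzyme activity of their own and signal through Jak kinases and Stat factors, Csf1r is a receptor tyrosine kinase, and Tgfbr1 and Tgfbr2 are serine/threonine kinases that phosphorylate Smad proteins. In the stem cell compartment TGF-beta is known for holding cells in quiescence, interferons for driving them into cycle, and the colony-stimulating factor receptors for marking the first steps of myeloid commitment.

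Klf5 belongs to a zinc-finger family that reads GC boxes (GGGCGG) and CACCC elements, so both motifs were searched, on either strand, in the 250 bases before the start of each receptor gene in the RefSeq promoter table on GRCm38.p6. Windows were found for 8 of the 10 genes, with 2 windows for Tgfbr1; Csf1r and Csf2rb were not matched. Of these 9 windows 6 held at least 1 GC box and 7 at least 1 CACCC element, where 32.7% and 52.0% of the 32851 windows in the table held them; the GC boxes and CACCC elements of Tgfbr1 lie in different windows. These matches describe letters in a window, not binding, and the motifs may overlap one another. Whether the motifs go with the differences between the genotypes was not tested, and 2 windows cannot show it. The windows of the member with the highest difference between the genotypes, Il6st, and of the member with the difference nearest 0, Tgfbr2, are shown with both motifs in capitals. That of Il6st holds 1 GC box and 2 overlapping CACCC elements and lies on the plus strand at chr13:112463820-112464069, and that of Tgfbr2 holds 1 CACCC element and no GC box and lies on the minus strand at chr9:116175364-116175613.
Il6st: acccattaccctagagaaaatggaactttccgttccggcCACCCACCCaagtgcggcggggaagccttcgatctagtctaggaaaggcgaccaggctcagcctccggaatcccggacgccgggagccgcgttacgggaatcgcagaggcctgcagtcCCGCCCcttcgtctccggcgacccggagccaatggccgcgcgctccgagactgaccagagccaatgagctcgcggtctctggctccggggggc
Tgfbr2: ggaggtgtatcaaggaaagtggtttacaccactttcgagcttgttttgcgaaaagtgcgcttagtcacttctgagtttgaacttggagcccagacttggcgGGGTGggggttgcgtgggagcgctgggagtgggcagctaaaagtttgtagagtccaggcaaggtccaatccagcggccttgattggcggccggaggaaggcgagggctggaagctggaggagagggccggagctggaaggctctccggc

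Across the 9 arrays the median log2 signal lay between 5.93 and 6.03, and the median of the negative-control probe sets between 5.27 and 5.62. All 14 LSK markers, with Kit at a mean of 10.14, Cd34 at 10.41 and Ly6a, the gene of Sca-1, at 7.63, exceeded the negative-control median in all 9 arrays. Klf5 had log2 signals of 6.72, 6.58, 6.76 and 6.69 in knockout replicates 2 to 5 and of 6.77, 6.98, 6.94, 6.98 and 6.77 in wild-type replicates 2 to 6, a difference of -0.20 (95% interval -0.37 to -0.03) with no overlap of the groups that did not pass adjustment (limma adjusted p = 0.916). The deleted stretch of Klf5 was not set against the probe positions, which makes this row only a partial check of the genotype labels. Hbb-b1 was highest in knockout replicates 2 and 5 and wild-type replicates 2 and 6, at 9.25 to 10.68 against 6.39 to 7.43 in the other arrays. Xist and Y-linked transcripts were both present in 3 arrays, namely wild-type replicate 6 and knockout replicates 2 and 5. Xist was at 9.59 to 11.12 in all 4 knockout arrays and in 2 of the 5 wild-type arrays, and Y-linked signal was present in 2 knockout and 4 wild-type arrays, so sex signal was unbalanced between the genotypes. Leaving out the 3 mixed arrays leaves knockout arrays with Xist alone against wild-type arrays that mostly carry Y-linked signal alone. In those values sex and genotype are largely confounded, and only wild-type replicate 5 shares the sex signal of the knockout arrays. The same holds without the 4 arrays highest in Hbb-b1, which leaves knockout replicates 3 and 4 against wild-type replicates 3, 4 and 5. Both of these knockout arrays carry Xist alone, wild-type replicates 3 and 4 Y-linked signal alone, and wild-type replicate 5 Xist alone. Both arrays of the separately normalized pair carried both signals.

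None of the 10 receptors differed between knockout and wild type beyond the spread between arrays. The log2 differences, always given as knockout minus wild type, ran from -0.12 for Csf3r to 0.27 for Il6st, with 5 above and 5 below 0. Their median was 0.03, beside a median of -0.02 over all transcript clusters. No receptor passed the adjusted threshold (limma, lowest adjusted p = 0.916), where 0 transcript clusters, 0% of those tested, passed. At an unadjusted p under 0.05 there were 0 of the 10, with 4.08% of all transcript clusters. The groups overlapped in all 10, where 0.985% of all transcript clusters did not overlap. All 10 intervals at 95% lay within a 2-fold change of signal in either direction, and 7 lay within 1.5-fold. The share of all transcript clusters with such intervals was not counted. Their median standard error was 0.116, beside 0.063 to 0.238 for the receptors, so these counts are not a trait of the receptors. In bulk RNA, fewer cells of a type and less RNA per cell cannot be told apart.

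**Figure D1:**
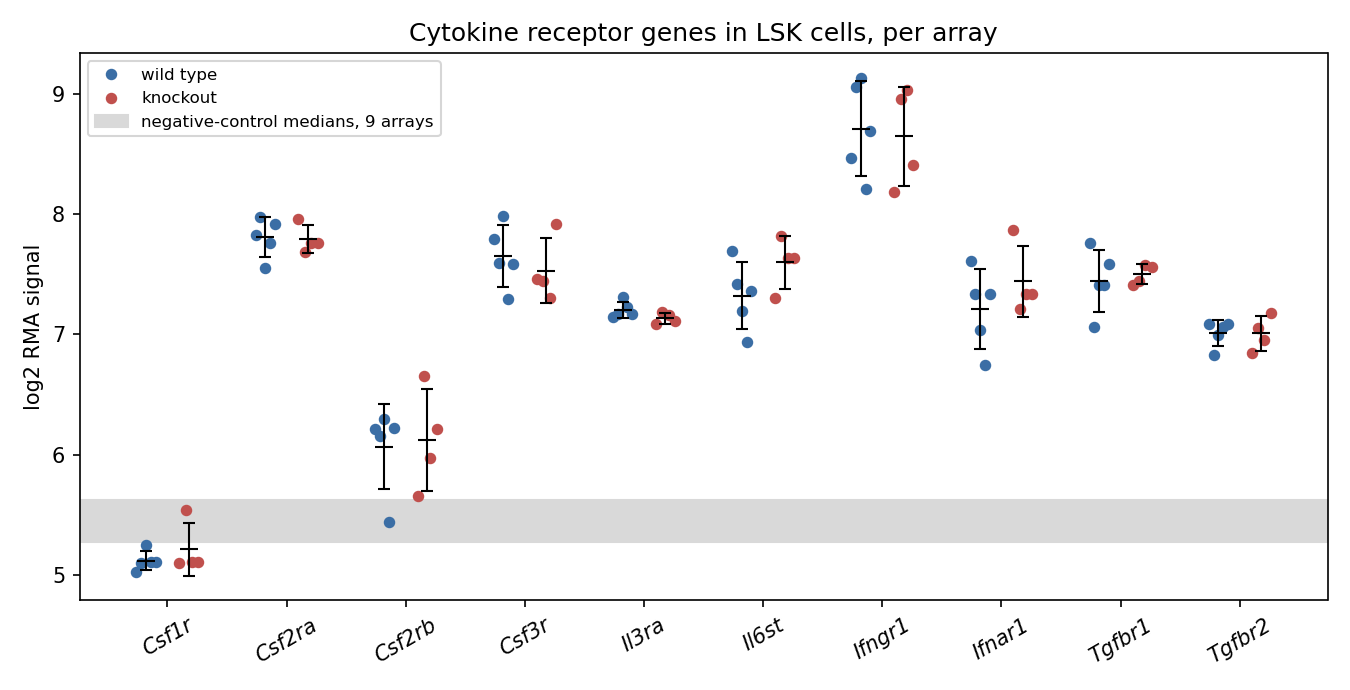
Log2 RMA signal of the 10 receptor genes (vertical axis) in each of 5 wild-type (blue) and 4 knockout (red) arrays, with mean and SD in black; the grey band spans the negative-control medians of the 9 arrays. The genotypes overlap for every gene, Csf1r lies within or below the band, and signals of different genes are not on one scale because their probes differ.

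Baseline signals were read against the negative controls of the same array, since probe sets of different genes are not on one scale. In 9 of the 10 receptors the signal exceeded the negative-control median in all 9 arrays. The margin was 2.91 to 3.80 log2 units for Ifngr1, 2.06 to 2.69 for Csf2ra, 1.72 to 2.65 for Csf3r, 1.73 to 2.39 for Tgfbr1 and 1.65 to 2.33 for Il6st. It was 1.46 to 2.60 for Ifnar1, 1.56 to 1.98 for Il3ra and 1.38 to 1.86 for Tgfbr2. Of these 9, Csf2rb was closest to background, with margins of 0.15 to 1.04. All 10 receptors lay below the 95th percentile of the negative controls in every array, which was 8.76 to 9.34. The margins over the median therefore do not set any receptor apart from the brighter negative controls. In each array the median over all transcript clusters, 5.93 to 6.03, also exceeded the negative-control median, 5.27 to 5.62. The share of all transcript clusters above that median in every array was not counted. Csf1r was below the negative-control median in all 9 arrays, by 0.08 to 0.47, so its signal does not show a transcript level, and its interval concerns the signal only.

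Csf1r encodes the receptor tyrosine kinase for Csf1 and Il34 that macrophages depend on. Its log2 signals were 5.10, 5.55, 5.11 and 5.11 in knockout replicates 2 to 5 and 5.03, 5.10, 5.25, 5.11 and 5.11 in wild-type replicates 2 to 6. Knockout replicate 3 stood above all other arrays, and the other knockout arrays lay within the wild-type range. The difference was 0.10 (95% interval -0.14 to 0.33), and without knockout replicate 3 it was -0.013. It was 0.21 without the 3 arrays of mixed sex signal and 0.17 without the 4 arrays highest in Hbb-b1. That array also had the highest mean of the monocyte and macrophage markers, 6.10, where the knockout arrays spanned 5.73 to 6.10 and the wild-type arrays 5.57 to 5.85. Of these 16 markers 7 exceeded the negative-control median in every array, while Adgre1, Mrc1 and Msr1 did in none. The part of these cells in the Csf1r value was not tested.

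The GM-CSF and Il3 receptors are built from a specific alpha chain that binds the ligand and a shared beta chain that carries the signal. Csf2ra, the GM-CSF alpha chain, had log2 signals of 7.96, 7.69, 7.76 and 7.76 in knockout and of 7.83, 7.98, 7.55, 7.76 and 7.91 in wild type, in the order of replicates used above. Wild-type replicate 4 was lowest and wild-type replicate 3 highest, so the wild-type arrays enclosed all knockout values. The difference was -0.01 (95% interval -0.24 to 0.21). With single arrays left out it lay between -0.078 without wild-type replicate 4 and 0.028 without wild-type replicate 3, and was above 0 also when wild-type replicate 6 (0.012) or knockout replicate 3 (0.021) was omitted. Il3ra, the Il3 alpha chain, had the smallest standard error of the 10, 0.063. Its values were 7.08, 7.18, 7.16 and 7.11 in knockout and 7.15, 7.17, 7.31, 7.23 and 7.17 in wild type. Knockout replicates 2 and 5 were the lowest of the 9 arrays and wild-type replicates 4 and 5 the highest. The difference of -0.07 (95% interval -0.21 to 0.07) kept its sign with each array left out, between -0.087 and -0.044.

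Csf2rb, the shared beta chain, varied more. It was at 5.66, 6.66, 5.97 and 6.22 in knockout and at 6.22, 6.16, 6.30, 5.44 and 6.22 in wild type. Knockout replicate 3 was highest and wild-type replicate 5 lowest, while the other wild-type arrays lay close together. The difference was 0.06 (95% interval -0.46 to 0.57), and it was -0.119 without knockout replicate 3, -0.098 without wild-type replicate 5 and 0.215 without knockout replicate 2. Without the 4 arrays highest in Hbb-b1 it was 0.35 (95% interval -0.54 to 1.24), and without the 3 of mixed sex signal 0.29. Knockout replicate 3 also had the highest means of neutrophil and granule markers, 6.67, with 5.93 to 6.67 over knockout and 5.96 to 6.19 over wild type, and of mast cell, basophil and eosinophil markers, 6.18, with 5.52 to 6.18 over knockout and 5.36 to 5.84 over wild type. Of the 16 neutrophil markers 8 exceeded the negative-control median in every array and Ly6g, Ltf, Mmp8, Mmp9 and Lcn2 in none; of the 14 mast cell, basophil and eosinophil markers 7 did in every array and Mcpt4, Cma1, Epx, Prg2 and Ccr3 in none. The part of such cells in the Csf2rb value was not tested. Mice carry a close copy of this gene, Csf2rb2, whose product serves the Il3 receptor. Its row was at 5.89, 5.78, 6.61 and 5.97 in knockout and at 5.89, 5.69, 6.27, 5.36 and 5.61 in wild type, a difference of 0.30 (95% interval -0.18 to 0.78). Its highest array was knockout replicate 4 and its lowest wild-type replicate 5. How far the probes of the copies tell them apart was not tested, so both values are uncertain.

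Csf3r, the G-CSF receptor of granulocyte progenitors and neutrophils, had the lowest difference of the 10. Its signals were 7.46, 7.45, 7.30 and 7.92 in knockout and 7.79, 7.60, 7.98, 7.29 and 7.59 in wild type. Knockout replicate 5 lay well above the other knockout arrays, and wild-type replicates 4 and 5 were the extremes of their group. The difference was -0.12 (95% interval -0.48 to 0.24). It stayed below 0 with each array left out, from -0.248 without knockout replicate 5 to -0.037 without wild-type replicate 4, and was -0.25 without the 4 arrays highest in Hbb-b1 and -0.29 without the 3 that carried Xist and Y-linked signal.

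Il6st encodes gp130, the chain that Il6, Il11, Lif and oncostatin M receptors share, and it had the highest difference. Its signals were 7.30, 7.82, 7.64 and 7.64 in knockout and 7.70, 7.42, 7.19, 6.94 and 7.36 in wild type. Knockout replicates 3, 4 and 5 lay above 4 of the 5 wild-type arrays, but wild-type replicate 2 exceeded 3 of the 4 knockout arrays and knockout replicate 2 lay within the wild-type range. The means were 7.60 ± 0.22 (SD, n = 4) and 7.32 ± 0.28 (SD, n = 5), a difference of 0.27 (95% interval -0.08 to 0.63, limma unadjusted p = 0.112, limma adjusted p = 0.916). Left-out arrays gave 0.179 (without wild-type replicate 5) to 0.375 (without knockout replicate 2), all above 0. Without the 4 arrays highest in Hbb-b1 the difference was 0.54 (95% interval 0.11 to 0.98, limma unadjusted p = 0.024), which did not pass adjustment either (limma adjusted p = 0.599). That fit left knockout replicates 3 and 4 against wild-type replicates 3, 4 and 5, where sex and genotype are largely confounded. Wild-type replicate 5, which like both knockout arrays carried Xist alone, had the lowest signal, 6.94. The part of sex in this difference was not tested. Without the 3 arrays of mixed sex signal the difference was 0.41 (95% interval -0.11 to 0.94). In the separately normalized pair it was 0.08, with 8.36 in knockout and 8.28 in wild type.

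**Figure D2:**
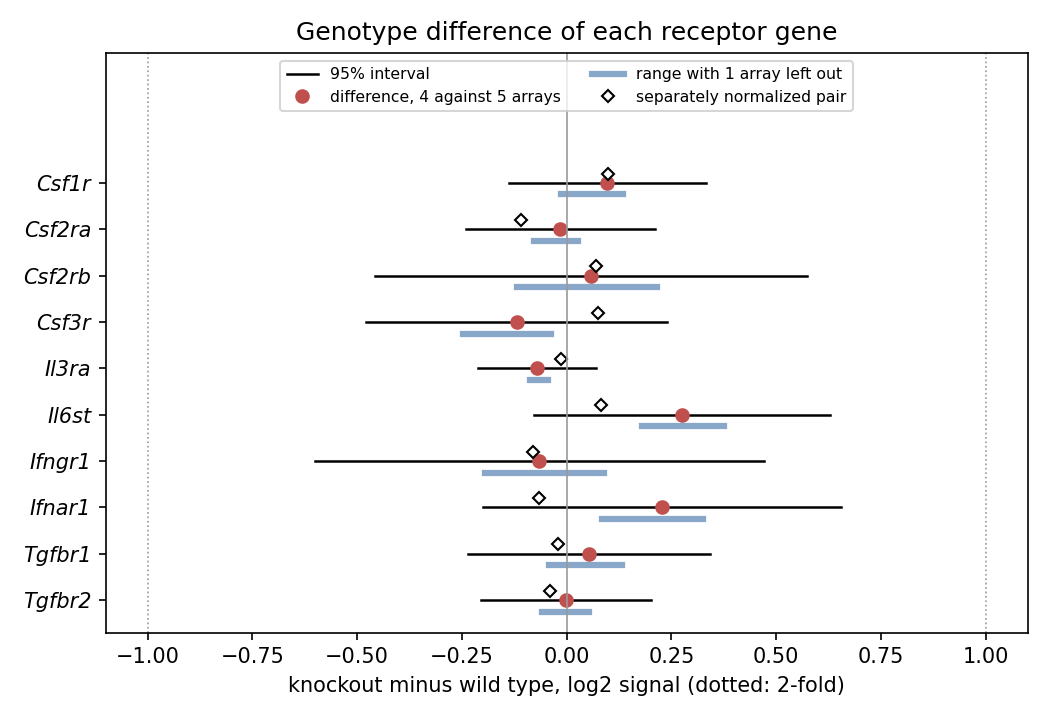
Knockout minus wild-type difference of log2 signal (horizontal axis) for each receptor, with the 95% interval in black, the range over fits with 1 array left out in blue and the separately normalized pair as open diamonds. Every interval holds 0 and lies inside the dotted 2-fold lines, and the left-out ranges of Csf3r, Il3ra, Il6st and Ifnar1 stay on one side of 0.

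Ifngr1, the ligand-binding chain of the interferon gamma receptor, had the largest standard error of the 10, 0.238. Its signals were 8.18, 8.96, 9.03 and 8.41 in knockout and 8.47, 9.06, 9.13, 8.21 and 8.69 in wild type. The knockout arrays spanned 0.85 log2 units and the wild-type arrays 0.925, with knockout replicates 3 and 4 and wild-type replicates 3 and 4 at the top. The difference was -0.07 (95% interval -0.60 to 0.47). Its direction turned without knockout replicate 2 (0.089) or 5 (0.013), without wild-type replicate 3 (0.022) or 4 (0.040), without the 4 arrays highest in Hbb-b1 (0.195) and without the 3 arrays that carried Xist and Y-linked signal (0.278). The part of that array structure in the Ifngr1 values was not tested. Its partner chain Ifngr2 had a difference of -0.11 (95% interval -0.51 to 0.29).

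Ifnar1 encodes a chain of the type I interferon receptor. Its signals were 7.87, 7.21, 7.34 and 7.34 in knockout and 7.61, 7.34, 7.03, 6.74 and 7.34 in wild type. Knockout replicate 2 was highest and wild-type replicate 5 lowest. The difference was 0.23 (95% interval -0.20 to 0.66, limma unadjusted p = 0.259, limma adjusted p = 0.916), and it was 0.084 when knockout replicate 2 was left out and 0.327 when wild-type replicate 2 was. Without wild-type replicate 5 it was 0.111, and without the 3 arrays of mixed sex signal 0.10. In the separately normalized pair it was -0.07. The other chain, Ifnar2, was at 9.43 ± 0.10 (SD, n = 4) and 9.35 ± 0.14 (SD, n = 5), a difference of 0.08. The mean of 18 interferon response genes, of which 9 exceeded the negative-control median in every array, spanned 5.74 to 6.10 in knockout and 5.69 to 6.22 in wild type.

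TGF-beta is bound by the type II receptor kinase, Tgfbr2, which then activates the type I kinase, Tgfbr1. Tgfbr1 was at 7.41, 7.45, 7.58 and 7.56 in knockout and at 7.76, 7.07, 7.41, 7.41 and 7.58 in wild type. The wild-type arrays spread over 0.695 log2 units and the knockout arrays over 0.16, inside the wild-type range. Its difference of 0.05 (95% interval -0.23 to 0.34) turned to -0.041 without wild-type replicate 3, and was 0.22 without the 4 arrays highest in Hbb-b1 and 0.10 without the 3 of mixed sex signal. Tgfbr2 was at 6.84, 7.06, 6.96 and 7.18 in knockout and at 7.09, 6.83, 6.99, 7.06 and 7.08 in wild type. Wild-type replicate 3 was lowest and knockout replicate 5 highest, and the difference was -0.002 (95% interval -0.20 to 0.20). It was the difference nearest 0 among the 10, with means of 7.01 ± 0.14 (SD, n = 4) and 7.01 ± 0.11 (SD, n = 5), and its sign turned with 5 of the 9 arrays left out in turn (knockout replicates 2 and 4, wild-type replicates 2, 5 and 6).

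The wider of the 2 within-genotype ranges had a median of 0.69 log2 units over the 10 receptors, beside 0.51 over all transcript clusters. In all 10 the difference between the genotypes was smaller than that range, as it was in 99.8% of all transcript clusters. Exactly equal values recurred in 4 arrays for Csf1r (5.11) and Ifnar1 (7.34) and in 3 arrays for Csf2ra (7.76), each time with knockout replicates 4 and 5 among them, and 32.1% of all transcript clusters had a value shared by at least 3 arrays.

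Of 45 pairs of receptors compared over the 9 arrays, no relation passed Benjamini-Hochberg adjustment. The strongest was between Il3ra and Ifnar1, with Pearson r = -0.78 (exact permutation test, two-sided p = 0.0185, adjusted over the 45 pairs 0.461) and Spearman rho = -0.90 (exact permutation p = 0.00185, adjusted 0.0833). It was r = -0.80 without the 2 arrays farthest from the Il3ra median and r = -0.74 after subtracting each genotype's mean. Tgfbr1 and Tgfbr2 had r = 0.68 (exact permutation p = 0.041, adjusted 0.461; rho = 0.60, exact permutation p = 0.0968, adjusted 0.662), 0.42 without the 2 farthest arrays and 0.69 after subtracting genotype means. Csf2rb and Il6st had r = 0.71 (exact permutation p = 0.0337, adjusted 0.461; rho = 0.43, exact permutation p = 0.25, adjusted 0.721), which was 0.28 without knockout replicate 2 and wild-type replicate 5, and 0.78 after subtracting genotype means over all 9. Leaving out the arrays farthest from the first gene's median narrows that gene's range, which by itself can lower r. Csf2ra and Il3ra had r = -0.70 (exact permutation p = 0.0358, adjusted 0.461; rho = -0.56, exact permutation p = 0.127, adjusted 0.662), -0.52 without the 2 farthest arrays and -0.88 after subtracting genotype means.

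**Figure D3:**
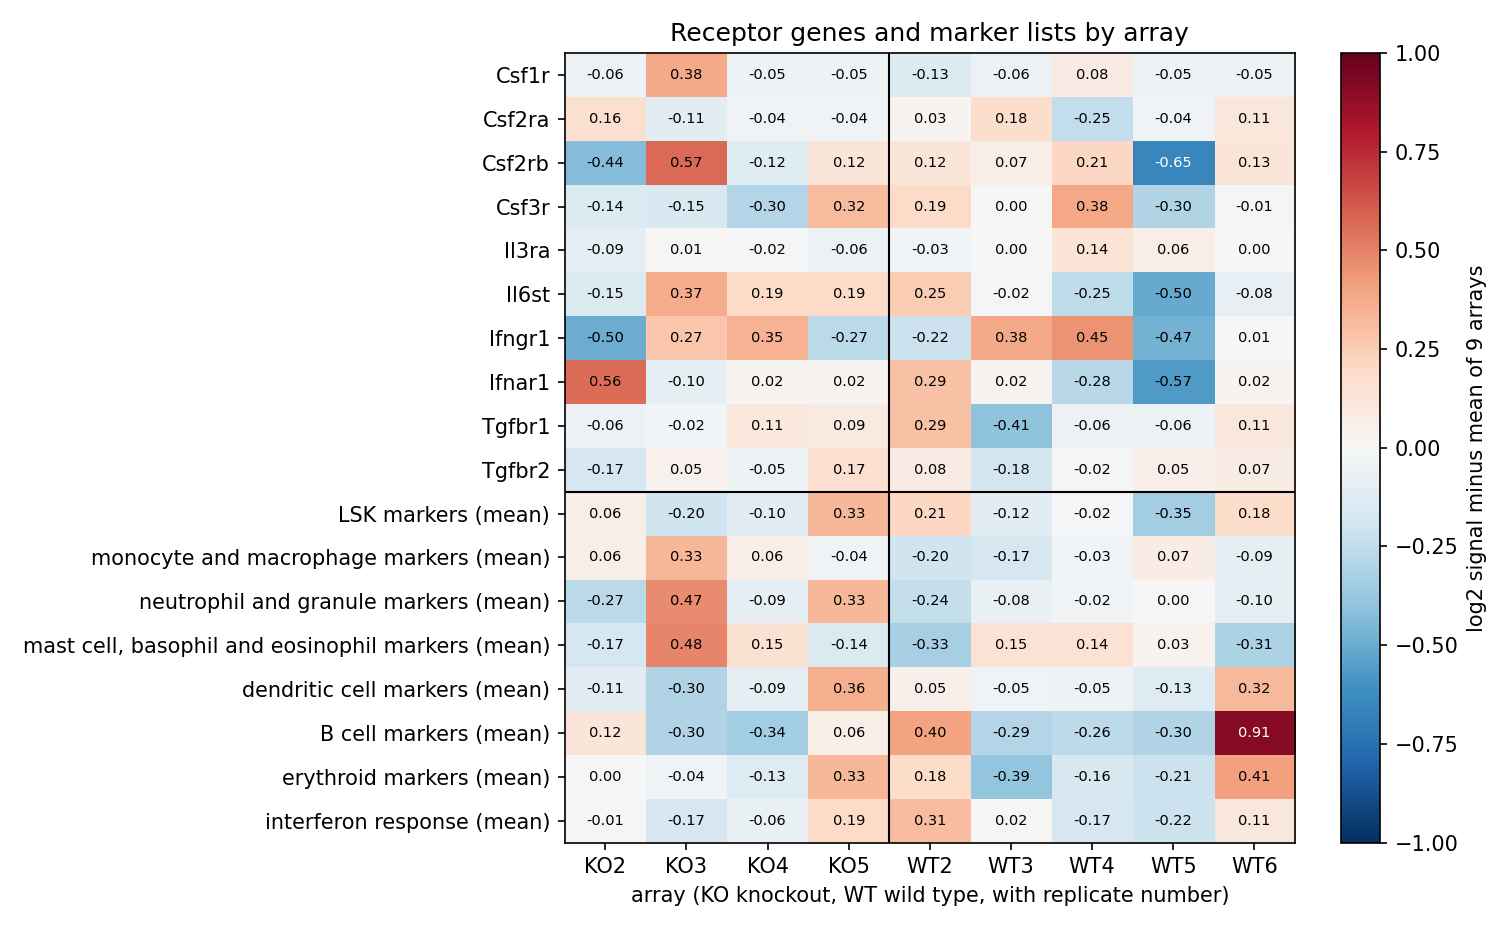
Log2 signal minus the mean of the 9 arrays for each receptor (upper rows) and for the mean of 8 marker lists (lower rows), by array; red is above and blue below that mean. Knockout replicate 3 is high for Csf1r, Csf2rb and the myeloid lists, and wild-type replicate 5 is low for Csf2rb, Il6st, Ifngr1 and Ifnar1.

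The genes most like each receptor were found by Pearson r of the log2 signals over the same 9 arrays, among 11497 rows with a gene name and a mean signal above the median of all rows; as the highest of many, these are descriptions without a test, and the arrays share their normalization. They were Napsa (r = 0.97) and Fpgs (0.96) for Csf1r, Bhlhb9 (0.98) and Lyrm2 (0.92) for Csf2ra, Atg16l1 (0.96) and Gpn1 (0.95) for Csf2rb, and H3c7 (0.94) and Hnrnpf (0.93) for Csf3r. For Il3ra they were Setd1b (0.95) and Tsc22d2 (0.93), for Il6st Rnaseh1 (0.93) and Tbp (0.93), and for Ifngr1 Pde4d (0.93) and Rps28 (0.92). For Ifnar1 they were Csk (0.96) and Trim12a (0.95), for Tgfbr1 Lipa (0.95) and Nck1 (0.95), and for Tgfbr2 Phtf1 (0.97) and Gpd2 (0.95). No receptor was among the 2 genes most like another receptor.

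The rest of the pathway was read from 6 lists of 133 measured genes, none of which passed the adjusted threshold. At an unadjusted p under 0.05 there were 3, or 2.26%, all with lower values in knockout (Acvrl1, Il2ra and Ifnb1), beside 1.45% of all transcript clusters with higher and 2.63% with lower values. That split of all transcript clusters, 420 higher and 761 lower, became 695 and 445 after median centring of the arrays. The direction within the lists depended on the fit too: the counts were 0 to 3 higher and 1 to 5 lower with single arrays left out, 2 higher and 3 lower with median centring, and 4 higher and 1 lower with the block from the column-name numbers, under which none of those 3 genes passed and Acvr2a, Il6 and Ptpn11, all higher, did (limma unadjusted p = 0.0485, 0.0287 and 0.0462).

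Partner receptor chains had 9 genes above and 11 below 0, with a median of -0.02 and 16 of 20 above the negative-control median in every array. Acvrl1, a type I receptor of the TGF-beta family, was at 6.18 ± 0.12 (SD, n = 4) in knockout and 6.45 ± 0.15 (SD, n = 5) in wild type, a difference of -0.26 (95% interval -0.48 to -0.04, limma adjusted p = 0.916). Without the 4 arrays highest in Hbb-b1 this was -0.46, and without the 3 with Xist and Y-linked signal -0.40; neither passed adjustment (limma adjusted p = 0.599 and 0.763). Eng, a TGF-beta co-receptor, had -0.17 and Acvr2a, an activin receptor kinase, 0.24. Among 26 other blood cytokine receptors 12 were above and 14 below 0, with a median of -0.03. Il2ra, with a difference of -0.19, was the only gene of the 6 lists whose groups did not overlap. That is 1 of 133 genes, beside 0.985% of all transcript clusters. Its highest knockout and lowest wild-type signals were 4.162 and 4.163, and it lay below the negative-control median in all 9 arrays. Il17ra had -0.18 and Kit, the stem cell factor receptor used in the sort, -0.17.

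Of the 17 ligands only 4 exceeded the negative-control median in every array; their median difference was -0.03, with 7 above and 10 below 0. Ifnb1 (-0.30) and Il6 (0.29) lay below that median in all 9 arrays, so these values carry no level, and Csf1 had -0.12. The 18 Jak, Stat and Smad genes had 10 above and 8 below 0 and a median of 0.02. Stat2, a factor of type I interferon signalling, had a difference of -0.37 (95% interval -0.78 to 0.03), Jak3 of -0.14 and Smad4, the shared Smad, of -0.18.

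Feedback inhibitors had the highest median of the 6 lists, 0.07, with 17 of 26 above 0, beside 44.1% of all transcript clusters. Whether the list differs from the other rows was not tested. The list name is a grouping, and whether each of its genes inhibits signalling in these cells was not tested either. The 3 of smallest p were tyrosine phosphatases: Ptpn11 at 0.41 (95% interval -0.03 to 0.85), Ptpn2 at 0.37 (-0.06 to 0.80) and Ptpn1 at 0.32 (-0.05 to 0.69), each with a limma adjusted p = 0.916. With single arrays left out the differences lay between 0.248 and 0.483 for Ptpn11, 0.232 and 0.458 for Ptpn2, and 0.198 and 0.400 for Ptpn1. In all 3 the lowest arrays were wild type, and in Ptpn11 knockout replicate 2 was highest, at 8.80. The 26 cytokine target genes had a median of -0.02 with 12 above and 14 below 0; Ifit3, an interferon target that lay below the negative-control median in all 9 arrays, had -0.20 and Myc -0.24.

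**Figure D4:**
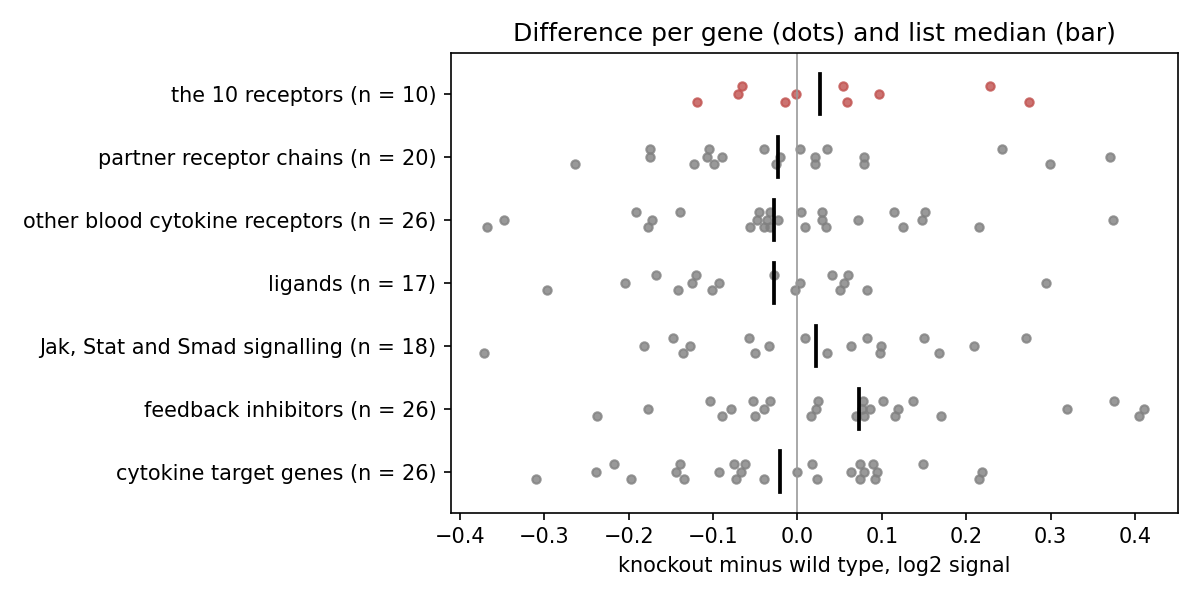
Knockout minus wild-type difference of log2 signal (horizontal axis) for the 10 receptors (red) and for each gene of 6 pathway lists (grey), with the median of each as a black bar. All medians lie between -0.03 and 0.07, and none of the genes passed the adjusted threshold.

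In the separately normalized pair, where no test is possible, the receptors differed by -0.11 (Csf2ra) to 0.10 (Csf1r). The sign was that of the main comparison in 7 of the 10, beside 44.6% of all transcript clusters. Csf3r differed by 0.075, Ifnar1 by -0.07 and Tgfbr1 by -0.02 there, against the signs given above. Over all transcript clusters the pair's difference correlated most with that between knockout replicate 5 and wild-type replicate 6 (r = 0.31), beside -0.10 to 0.17 for the other combinations of a knockout and a wild-type array; whether these arrays share RNA with the pair was not tested.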

How the data were processed

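The authors deposited log2 RMA signals (gene level, default settings per the file headers; Affymetrix Expression Console per the submitters' processing notes) in a table of 9 arrays and a table of 2, normalized apart. Column numbers disagreed with the labels' replicate numbers, so each column was tied to its sample through the deposited value table, which it equalled within 5e-05. Control rows were left out, and the remaining 28944 transcript clusters entered limma (version 3.58.1 under R 4.3.3), where a linear model with moderated variances (lmFit, eBayes) gave two-sided p-values, adjusted by Benjamini-Hochberg and called under 0.05; the fit was tested on simulated data. Symbols were updated through RefSeq accessions on GRCm38.p6 (22173 rows matched), and the row of highest mean per gene was used. Likeness, permutation tests and figures used Python 3.11.15 and matplotlib 3.10.9.

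Beside the members, the text names Klf5, up to 3 genes of smallest p per pathway list and 2 genes of highest r per member; 1 gene the rule names is not reported here. Csf2rb2, Ifngr2 and Ifnar2 were added as partners, and the LSK markers Cd34 and Ly6a and markers below background as checks, after their values were seen. The members, lists and alternatives were chosen with earlier results of these data known. Besides the pathway lists, 10 marker lists were read. Arrays carry no read depth, and their number limits the precision (median standard error 0.116). Since no label ties an array to its own animal, p-values reflect spread among these arrays, which may be technical. The alternatives tried were the value table, a fit of all 11 arrays, scaling, variance models, array weights, replicate blocks, a plain equal-variance test and arrays left out.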

Additional observations from a re-analysis of the deposited data

Results flagged for a closer look

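The screen covered 56 groups of 4 or 5 arrays (10 receptors and 18 pathway genes in each genotype). In 4 of them a lone array lay at a distance from the rest of its group. Chance would give this in about 1 in 20 groups, or 2.8, if values were untied and genes unselected. Here the pathway genes were picked by smallest p, and all groups come from the same arrays. Csf1r also had equal values in knockout replicates 4 and 5, so the rate is only a rough guide. Csf1r was high in knockout replicate 3, at 5.545 against 5.10 to 5.11 in the other knockout arrays. Csf2rb was low in wild-type replicate 5, at 5.44. Smad4 was high in wild-type replicate 2, at 8.494, and Ptpn11 high in knockout replicate 2, at 8.804.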

How the results depend on the processing

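No receptor passed the adjusted threshold in any fit that measured it, and 0 transcript clusters passed in any. The count of receptors at an unadjusted p under 0.05 was 0, between 0 and 1 with single arrays left out, and 1 without the 4 arrays highest in Hbb-b1, each time Il6st. The count of transcript clusters at that level, 1181, lay between 798 and 1698 with single arrays left out, was 1850 without the arrays with Xist and Y-linked signal, 2306 without those highest in Hbb-b1, and 47 of 2006 after the filter on dim rows, which removed all 10 receptors. The sign turned for differences near 0. Csf2ra was at 0.020 with median centring, 0.012 with the replicate block from the labels and 0.028 with that from the column names. Ifngr1 was at 0.044 with array weights, 0.022 with the column-name block, 0.278 without the arrays with Xist and Y-linked signal and 0.195 without those highest in Hbb-b1. Tgfbr1 was at -0.0085 with array weights and -0.041 with the column-name block. Tgfbr2 was at 0.033 with median centring, 0.016 with the label block, and 0.013 and 0.045 without those sets of arrays. With single arrays left out the differences lay between -0.013 and 0.135 for Csf1r, -0.078 and 0.028 for Csf2ra, -0.119 and 0.215 for Csf2rb, -0.195 and 0.089 for Ifngr1, -0.041 and 0.132 for Tgfbr1, and -0.059 and 0.053 for Tgfbr2. The cause was not tested. No label says whether replicate numbers pair the arrays, and the correlations do not settle it. Deviations of same-numbered arrays correlated between -0.242 and 0.133 by the labels and between 0.066 and 0.404 by the column names. Knockout replicates 2 and 3 matched their own number best by the labels, and knockout replicates 2 and 5 by the column names. The label block drops wild-type replicate 6 and the column-name block wild-type replicate 3, and neither changed an adjusted call. Each receptor has 1 row, so other rows were not run.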
